A study of Arabidopsis thaliana with 12 samples.

Results

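The fad3/7/8 line is an Arabidopsis triple mutant of the 3 omega-3 fatty acid desaturase genes FAD3, FAD7 and FAD8, and its expression was compared with that of both control lines of the study. Its 2 arrays, 1 of seedlings at ambient temperature and 1 of seedlings given a cold treatment, are 2 of the 12 Affymetrix ATH1 arrays of a series titled after the part of membrane fluidity in the perception of low temperature. They were set against 4 control arrays, the Col-0 wild type and the line Col-aeq at the same temperatures. Of 14131 probe sets with a mean signal of at least 20 over these 6 arrays, 3839 (27.2%) differed in the same direction from each control line at both temperatures, 2041 (14.4%) higher and 1798 (12.7%) lower in fad3/7/8. Among them, 1080 of the higher and 984 of the lower probe sets were listed with a single gene.

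The single fad mutations were made with the mutagen EMS, and the triple mutant came from crosses between double mutants. The array titles give fad3/7/8 and Col-aeq the same "aeq" tag, which stands for the calcium reporter apoaequorin, so Col-aeq is the control that shares the reporter and Col-0 is the one without it. The other lines, fab1, fad2 and 35S-FAD3 (the last by its title, since its genotype field names only 35S::apoaequorin), entered just where stated. All seedlings spent 4 days in a fridge after sowing and then grew on MS medium at 20 °C under a day of 16 h light and 8 h dark, and whole seedlings were taken at growth stage 1.02. How cold the treatment was, how long it lasted and whether plants were pooled is not stated in the labels. Each line has 1 array per temperature, all numbered replicate 1, so no test rests on repeat arrays of a line at a temperature. Line and growth of that line cannot be told apart. In the main fit the spread includes the difference between the control lines. A fit against a single control line, or between the control lines, holds only the change of the line difference with temperature. Its p-values thus leave out the spread between lines. In whole seedlings, fewer cells of a type and less RNA per cell cannot be told apart either.

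FAD3 in the endoplasmic reticulum, and FAD7 and FAD8 in the plastid, put the third double bond into membrane fatty acids. The trienoic product linolenic acid is the starting material of jasmonate, the hormone that switches on defence genes through MYC factors and is inactivated by jasmonate oxidases (JOX) and other enzymes. Mutants that lack all 3 desaturases are known in Arabidopsis for very low trienoic fatty acids and little jasmonate. No probe set is listed under FAD3, FAD7 or FAD8 in the probe table, so the genotype was not checked on the arrays. The levels below are MAS5 signals, which compare 1 probe set between arrays and not different probe sets with each other. Differences are log2(signal + 1.6), fad3/7/8 minus the mean of the controls.

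The arrays shared a trimmed mean signal of 100 and median signals of 34.5 to 39.3. The Col-aeq ambient array stood apart: its actin 3′ to 5′ signal ratio was 23.3, against 6.22 to 10.1 on the other 11 arrays. Its GAPDH ratio was 3.54, against 1.11 to 1.66, and its 25S rRNA probe set read 2462.9, and that of Col-aeq cold 849.3, against 99.1 to 472.6 on the 10 arrays of the other lines. It enters 1 of the 4 differences behind each value, so results that rest on it are given without it too. The summed signal of the 7 tested root markers was 3310 in fad3/7/8 at ambient temperature, between 2840 and 2960 in the controls, and 2690 in the cold, against 2790 to 3010. Without PYK10, whose probe set had the highest signal of them, the sums were 515 and 276 in fad3/7/8 and 343 to 476 in the controls. Of the 16 listed root markers, 7 were tested and none was near 0 on any array; 3 of the 7 had an unadjusted p under 0.05 on the lower side without Col-aeq ambient, and 0 with all arrays; over all probe sets those counts were 892 and 498 of 14131. Their part in the results was not tested.

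In the test over all probe sets, 1 of 14131 (0.00708%) passed an adjusted p of 0.05 in limma with Benjamini-Hochberg adjustment, and it was lower in fad3/7/8. At an unadjusted p under 0.05 there were 839 (5.94%), of which 341 (2.41%) were higher and 498 (3.52%) lower. The probe set that passed, 255710_at, has no gene listed in the table used here. In fad3/7/8 it read 21.2 under ambient conditions and 20.2 after cold, 112.7 and 98.8 in Col-0, and 91.8 and 121.1 in Col-aeq. It thus fell by 2.26 on the log2 scale (SE 0.18, adjusted p = 0.0182), with no overlap between the groups. It did not pass when Col-aeq cold, Col-0 cold or either fad3/7/8 array was left out, the differences then lying between -2.35 and -2.18 and the adjusted p reaching 0.81. The same probe set was low in fab1, at 24.7 and 15.7, while fad2 and 35S-FAD3 read 89.9 to 121.7.

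**Figure D1:**
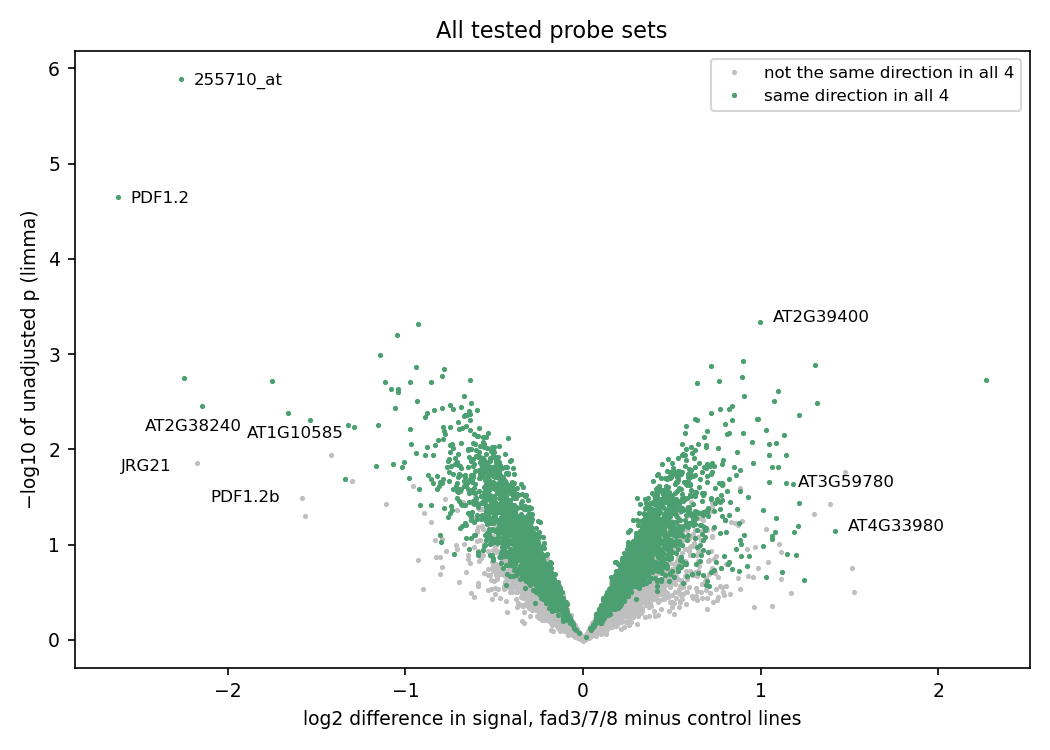
Each point is 1 of the 14131 tested probe sets, with the log2 difference of fad3/7/8 from the mean of the control lines on the x axis and the −log10 of its unadjusted limma p on the y axis; green points differ in the same direction in all 4 single comparisons. Probe set 255710_at and PDF1.2 stand alone at the top left, and JRG21 and PDF1.2b are grey because 1 of their 4 differences points the other way.

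The named gene with the largest margin below both controls was PDF1.2 (AT5G44420), a plant defensin and the customary marker of the joint jasmonate and ethylene response. In fad3/7/8 it read 7.4 at ambient temperature and 6.4 in the cold. Col-0 read 79.7 and 46.5, and Col-aeq 64.2 and 27. Both mutant arrays lay below all 4 control arrays. They also lay under 9, the 25th percentile of all values, and the probe set passed the minimum mean of 20 only through the controls, so the size of the difference is uncertain. It was -2.62 (SE 0.303), with an adjusted p of 0.157 against both control lines together. Each control alone gave a passing difference, -2.88 against Col-0 (adjusted p = 0.00388) and -2.35 against Col-aeq (adjusted p = 0.0332). These comparisons share the fad3/7/8 arrays, and the spread in each leaves out that between lines.

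PDF1.2b (AT2G26020), a near-identical copy whose probe set may read both genes, was 21.4 at ambient temperature, against 207.7 and 159.6 in the controls. In the cold it was 63.8, above the 42.3 of Col-aeq and below the 121.9 of Col-0, so the groups overlapped there (-1.58, SE 0.614, adjusted p = 0.819). Its difference was -0.17 without fad3/7/8 ambient and -3 without fad3/7/8 cold. PDF1.4 (AT1G19610), another member of the defensin family, read 39.4 and 34.7 in fad3/7/8 and 56.1 to 81 in the controls, without overlap (-0.80, SE 0.174, adjusted p = 0.819). PDF2.1 was higher in all 4 differences at 0.86 (SE 0.482, adjusted p = 0.821), with 80.3 and 84.4 in fad3/7/8 and 16.2 to 72.7 in the controls. Of the 5 tested defensin genes, 2 were lower and 1 higher in all 4 differences, against 12.7% and 14.4% of all probe sets, and their median was -0.80, against 0.03 for all tested probe sets. After median centring 2 were lower and 0 higher.

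The jasmonate oxidases hydroxylate and so inactivate jasmonic acid, and their own genes are induced by it. All 3 that were tested had an unadjusted p under 0.05 on the lower side, where 3.52% of all probe sets lie, and none passed after adjustment. Their median of -2.14 was -0.97 without fad3/7/8 cold, where 0 of 3 had an unadjusted p under 0.05, and -3.11 without fad3/7/8 ambient. AT2G38240 (JOX4) read 32.7 at ambient temperature and 10 in the cold in fad3/7/8, below the 44.7 to 152.9 of the controls (-2.14, SE 0.529, adjusted p = 0.819, from -3.32 to -0.97 with single arrays left out). AT5G05600 (JOX2) read 73.7 and 57.9, below the 77 to 220.7 of the controls, with the Col-aeq ambient array only just above (-1.17, SE 0.38, adjusted p = 0.819, from -1.60 to -0.73). JRG21 (AT3G55970, JOX3) read 18 and 9. Its controls were 113.7 and 116.3 in Col-0 and 16.9 and 69.9 in Col-aeq, so the ambient arrays of fad3/7/8 and Col-aeq overlapped (-2.18, SE 0.696, adjusted p = 0.819, from -3.11 to -1.24).

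JRG21 is the gene here whose call turned on 1 array. Its mean signal of 13.5 in fad3/7/8 is under 20, and it too passed the filter only through the controls. Without Col-aeq ambient, the array with the raised 3′ to 5′ ratios, its difference was -2.88 with an adjusted p of 0.0298, and 2 probe sets passed in all, JRG21 and 255710_at. Against Col-0 alone, a fit of 2 fad3/7/8 and 2 Col-0 arrays, 277 of 14131 probe sets (1.96%) passed on the lower side. The 3 oxidase genes were among them, with differences of -3.02 for JRG21 (adjusted p = 0.0011), -2.62 for AT2G38240 (adjusted p = 0.013) and -1.65 for AT5G05600 (adjusted p = 0.00327). Against Col-aeq alone none of them did, and the differences were -1.34 (adjusted p = 0.462), -1.66 (adjusted p = 0.145) and -0.68 (adjusted p = 0.554). Col-aeq itself stood below Col-0 at all 3 genes, by differences of -1.68, -0.96 and -0.97 that did not pass (adjusted p = 0.182, 0.225 and 0.257).

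Of the 30 listed jasmonate response genes, 6 are named on the array and 5 passed the signal filter; 3 of these had an unadjusted p under 0.05 on the lower side, where 3.52% of all probe sets lie, and the median of the 5 was -1.58. That median was -0.23 without fad3/7/8 ambient, with 1 on the lower side, and -2.30 without fad3/7/8 cold. Beside PDF1.2 and PDF1.2b the third was AT1G10585, a basic helix-loop-helix factor gene. It read 16.3 and 39.9 in fad3/7/8, below the 57.3 to 130.5 of the controls (-1.66, SE 0.422, adjusted p = 0.819, from -2.30 to -1.02 with single arrays left out). MYC3 and MYC4, the only MYC factor genes among the tested list members, showed no like difference. They stood at 0.03 (SE 0.188) and -0.15 (SE 0.184), both overlapping the controls. MYC2 was not among the tested list members, so its level is not given here. Of the synthesis genes only OPCL1, an acyl-CoA ligase that acts on jasmonate precursors, was tested, at 0.26 (SE 0.347, adjusted p = 0.907), or -0.08 without Col-aeq ambient. JMT, which makes methyl jasmonate, the thionin THI2.1 and AT3G11180 (JOX1) had mean signals of 8.55, 7.67 and 7.1 and were left out as too low.

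**Figure D2:**
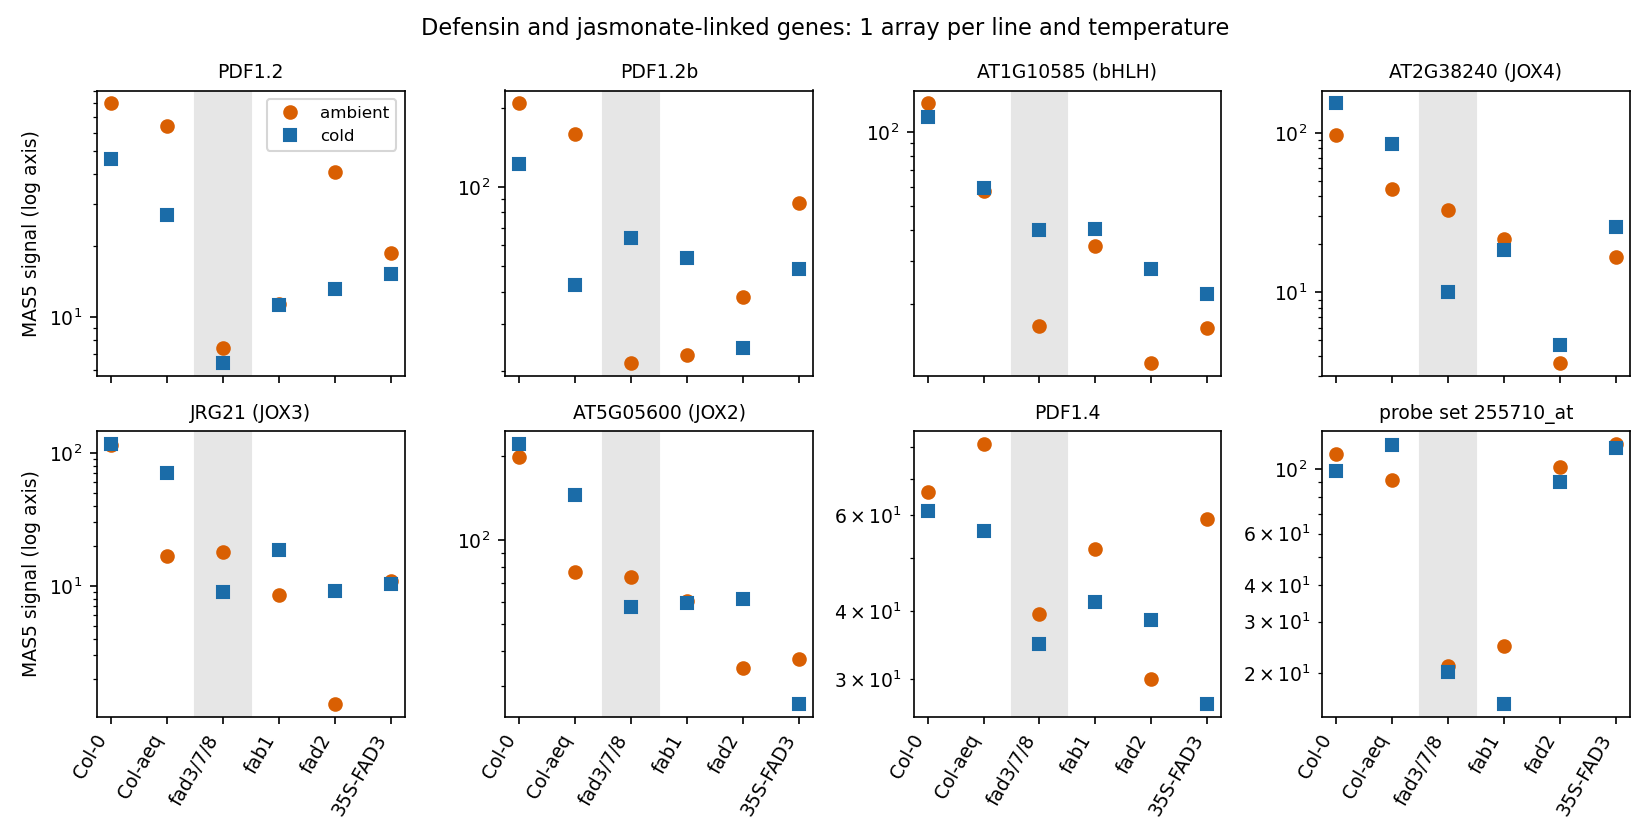
MAS5 signal on a log axis for the defensin and jasmonate-linked genes and for 255710_at, with 1 point for each of the 12 arrays, ambient as circles and cold as squares, and fad3/7/8 shaded. PDF1.2 is lowest in fad3/7/8 at both temperatures, at signals under 20, while the oxidase genes lie low in all 4 altered lines, in no single order.

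Low jasmonate-linked signals were also present in the other 3 altered lines. For AT2G38240, AT5G05600 and AT1G10585, all 6 arrays of fab1, fad2 and 35S-FAD3 also lay below all 4 control arrays. AT2G38240 ranged from 3.6 to 25.6 with a median of 17.5 on those 6 arrays, against 44.7 to 152.9 with a median of 90.6 on the control arrays. For PDF1.2 and JRG21 it was 5 of 6 arrays, and for PDF1.2b 3 of 6. These genes were singled out as low against the same 4 control arrays. The share of all probe sets with this pattern was not counted, so it cannot be called particular to jasmonate-linked genes. PDF1.2 reached 41 in fad2 at ambient temperature and 11.2 at its lowest, in fab1 in the cold, against 7.4 and 6.4 in fad3/7/8. For PDF1.2, AT2G38240 and JRG21 most signals of these lines are under 20, so their order is not firm.

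The other named genes with the largest margins below both controls had no shared annotation by which they were chosen, and none passed after adjustment (adjusted p = 0.819 for each). AT3G03060, an AAA-type ATPase gene, read 8.5 and 5.8 in fad3/7/8 against 16.6 to 49.3 in the controls (-1.75, SE 0.388). UGT76E12, a glycosyltransferase gene, read 7 and 10.4 against 17.1 to 42.4 (-1.54, SE 0.401). AT2G04050, a gene of the MATE transporter family, read 8.5 and 9.6 against 18.1 to 41.7 (-1.33, SE 0.355). Their means over the 6 arrays were 22.4, 22.8 and 20.6, close to the minimum of 20. In fad3/7/8 the means were 7.15, 8.7 and 9.05, so these genes passed the minimum only through the controls. The offset acts most at such signals, and the sizes of these differences are uncertain.

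Several of the lower genes act in RNA and ribosome biology. PPR336, a pentatricopeptide protein of mitochondrial ribosomes, read 54.4 and 69.5 in fad3/7/8 against 90.7 to 198.1 in the controls (-1.06, SE 0.263). AT2G32220, which codes for a ribosomal protein of the L27e family, read 26.8 and 46.2 against 66.8 to 90.9 (-1.05, SE 0.195). AT3G58660, of the ribosomal L1 family, read 56.7 and 79.3 against 96.6 to 183.1 (-0.85, SE 0.19). AT2G18220, of the Noc2 family of ribosome assembly factors, stood at -0.84 (SE 0.211), and AT3G66652, with a Fip1 motif, at -0.97 (SE 0.283). The groups did not overlap at any of the 5, which follows largely from the choice by margin. They were not named as a list but grouped by annotation after the choice, and no test of a theme was made. The share of such genes among all probe sets was not counted. At ambient temperature fab1 was as low for PPR336 (54) and AT3G58660 (55.8). AT2G18220 read 29.2 in fab1 and 26.5 in 35S-FAD3, against 31 in fad3/7/8. In the cold fad3/7/8 was the lowest of the 6 lines for these genes. For AT2G32220 and AT3G66652 it was the lowest at ambient temperature. AT5G26110, of a protein kinase family (-0.97, SE 0.218), and AT1G06620, of an oxygenase family (-0.81, SE 0.286), complete the 12.

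On the higher side the largest margin belonged to AT2G39400, an alpha/beta-hydrolase gene. It read 202.2 at ambient temperature and 109.6 in the cold in fad3/7/8. The controls read 113.9 and 126.3 at ambient temperature and 43.6 and 47 in the cold, so fad3/7/8 was above both at each temperature (1.00, SE 0.177, a 1.99-fold level, adjusted p = 0.819). AT4G12500, of the lipid-transfer protein family, read 128.2 and 99.3 against 50 to 72.3 (0.91, SE 0.215). AT3G59780, of the rhodanese family, read 646.3 and 336, against 417.9 and 145.8 in Col-0 and 138.7 and 232 in Col-aeq (1.14, SE 0.406). Leaving out single arrays moved that difference between 0.76 and 1.44.

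The rest of the named higher genes had differences of 0.64 to 0.96, each with an adjusted p of 0.819. AT3G47980, of the HPP membrane protein family, read 49.8 and 60.9 against 26 to 37.3 (0.84, SE 0.207). AT1G30860, a RING-finger gene, read 38.6 and 46.5 against 20.6 to 30.2 (0.82, SE 0.228). AT2G39870 stood at 0.89 (SE 0.196), AT5G44660 at 0.96 (SE 0.306), AT2G36470 at 0.87 (SE 0.263) and AT1G35612 at 0.72 (SE 0.183). AT1G32090, of the early-responsive to dehydration family, stood at 0.70 (SE 0.248) and AT3G22180, of the DHHC zinc finger family, at 0.64 (SE 0.239). For 11 of the 12 named higher genes fad3/7/8 was the highest of the 6 lines at both temperatures, the exception being AT3G59780. It was the lowest of the 6 lines at both temperatures for 3 of the 12 named lower genes, PDF1.2, AT5G26110 and AT3G66652. For PDF1.2 and AT3G66652 the fad3/7/8 signals were under 20, and both genes passed the minimum only through the controls. Over all kept probe sets it was the highest at both temperatures for 569 of 2041 higher ones (27.9%). It was the lowest for 509 of 1798 lower ones (28.3%). The named genes of both directions were picked for the largest margins, so the shares of all kept probe sets are no fair reference for them. The place beyond both controls was set by the choice of members, so only the other 3 lines are new here.

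**Figure D3:**
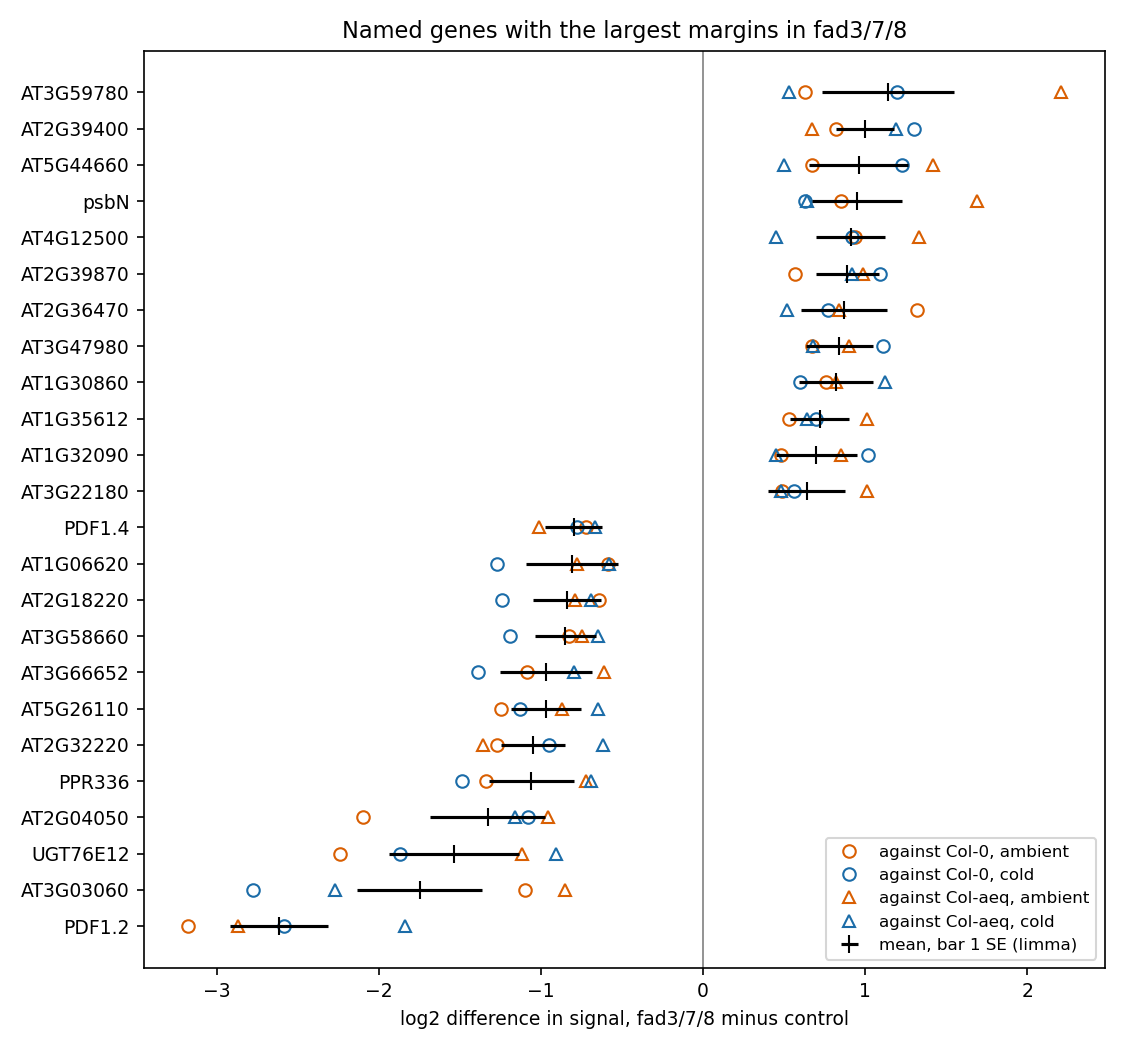
Log2 difference of fad3/7/8 from each control line at each temperature for the 24 named genes, circles against Col-0, triangles against Col-aeq, orange ambient and blue cold; the black mark is the mean and its bar 1 SE from limma. All 4 differences of a gene lie on 1 side of 0 by the rule, and the spread among them is widest for AT3G59780 and AT3G03060.

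Margins were small for most kept probe sets. The smallest of the 4 differences reached 0.5 for 26 higher probe sets (0.184%) and 27 lower ones (0.191%), and 1 for 0 higher and 3 lower ones (0.0212%). The median difference was 0.31 for the higher set and -0.32 for the lower set, with median margins of 0.0861 and 0.105. At the edge of the rule, AT4G38410 was kept with a mean signal of 20 and AT3G56590 was left out with 19.95, while AT4G29070 was kept with a margin of 0.00033. The split between directions moved with the scaling: 53.2% of the kept probe sets were higher with the deposited values, 49.3% after quantile normalization (1936 higher, 1993 lower) and 42.2% after median centring (1572 higher, 2154 lower).

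The rule did not use fab1, fad2 and 35S-FAD3, and there the kept sets had opposite cold changes. The set higher in fad3/7/8 had median cold changes of -0.26 in fab1, -0.17 in fad2 and -0.23 in 35S-FAD3, and the set lower in fad3/7/8 had 0.27, 0.16 and 0.19. All tested probe sets had medians of -0.04, -0.04 and -0.06. On the arrays that the rule did use, the higher and lower sets had -0.17 and 0.1 in Col-0 and -0.15 and 0.12 in fad3/7/8. In Col-aeq the signs were the other way, 0.05 and -0.07. These are descriptions of 1 difference per line.

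Of the alternatives run, the choice of control line moved the count of calls most. Fits against a single control line, and between the control lines, hold no spread between lines. Against Col-0 alone, 507 probe sets passed (3.59%), 230 higher (1.63%) and 277 lower (1.96%), and 319 of them (62.9%) differed in the same direction in all 4 single comparisons. A call against Col-0 largely sets 2 of those 4 signs, and the other 2 share the fad3/7/8 arrays, so the share is a description; 61 of the 507 differed in the opposite direction from the mean of Col-aeq. Against Col-aeq alone, 4 passed (0.0283%): PDF1.2 and 255710_at lower, and AT3G25150 and 256766_at higher (0.0142% each way). AT3G25150 read 116.2 and 97.5 in fad3/7/8, 123.4 and 112.9 in Col-0, and only 13.8 and 7.7 in Col-aeq, so Col-aeq stood apart from the other 5 lines, which read 92.6 to 144.2. Between the control lines, 7 probe sets passed (0.0495%), 5 higher (0.0354%) and 2 lower (0.0142%) in Col-aeq, AT3G25150 among them at -3.32 (SE 0.281, adjusted p = 0.000751).

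Among the 7 tested genes of the cold response list, 1 differed from Col-0 in both fad3/7/8 and Col-aeq at an adjusted p under 0.05. AT4G33980 (COR28), a cold-regulated repressor tied to light signalling and the clock, read 51.3 at ambient temperature and 515.5 in the cold in fad3/7/8. Col-0 read 4.4 and 146.8, and Col-aeq 33.8 and 461.5. Against Col-0 it rose by 2.47 (SE 0.268, adjusted p = 0.00391), against Col-aeq the difference was 0.37 (SE 0.242, adjusted p = 0.821), and Col-aeq itself was above Col-0 by 2.1 (SE 0.267, adjusted p = 0.0203). Its relative COR27 (AT5G42900) read 31.1 and 426.7, against 11.7 and 155.5 in Col-0 and 19.9 and 430.1 in Col-aeq; it passed against Col-0 (1.37, SE 0.163, adjusted p = 0.00509) and not against Col-aeq (0.30, SE 0.247, adjusted p = 0.891). Col-aeq minus Col-0 was 1.08 for COR27 and did not pass (adjusted p = 0.225). The pattern was not particular to COR28. Outside the list, AT1G20030, AT1G76960 and AT2G39920 passed both comparisons too. Their differences from Col-0 were 1.39, 2.07 and 2.02 in fad3/7/8 (adjusted p = 0.0426, 0.0125 and 0.00506). In Col-aeq they were 1.67, 1.91 and 1.83 (adjusted p = 0.0458 for each). Col-0 read 41.2 (ambient) and 253 (cold) for AT1G20030, 11.2 and 33.3 for AT2G39920, and 40.5 and 6.7 for AT1G76960. Both comparisons share the Col-0 arrays.

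Of the 19 listed cold response genes 7 were tested. Of these, 4 were higher and 0 lower in all 4 differences, against 14.4% and 12.7% of all probe sets. The median of the 7 was 0.33, and 0 passed against both controls together. For the 4 higher genes the smallest difference was 0.31 for STZ, 0.16 for COR28, 0.1 for COR15A and near 0 for LTI30. For all but STZ it was the difference from Col-aeq in the cold. STZ, a zinc-finger repressor of stress responses, read 66.2 and 880.9 against ambient values of 36.8 and 46.5 and cold values of 709.6 and 691.4 in the controls (0.49, SE 0.171, adjusted p = 0.819). COR15A, a chloroplast protein that protects membranes in freezing, stood at 0.33 (SE 0.182) and its copy COR15B at -0.05 (SE 0.245). The dehydrin genes LTI30 and COR47 stood at 0.11 (SE 0.13) and 0.06 (SE 0.14). Under quantile normalization 5 were higher. Without Col-aeq ambient, 4 of the 7 had an unadjusted p under 0.05 on the higher side, against 1 with all arrays. Over all probe sets that count went from 341 to 668 of 14131.

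Among the other lists, the counts were small. GI, a clock component that peaks in the evening, read 398.2 at ambient temperature, against 202.3 and 190.5 in the controls, and 647.3 in the cold, between the 471.8 of Col-0 and the 679.2 of Col-aeq (0.60, SE 0.229, adjusted p = 0.819). CML38, a calmodulin-like gene, read 41.2 and 36.9 against 12.3 to 27.4 (0.86, SE 0.294, adjusted p = 0.819), and CML42 stood at 0.01 (SE 0.231). UGT78D2, which glycosylates flavonols and anthocyanins, read 112.1 and 649.6 against ambient values of 199 and 165.2 and cold values of 1070.0 and 741.5 (-0.57, SE 0.192, adjusted p = 0.819). Of the 30 tested UGT genes, 7 were lower and 2 higher in all 4 differences, against 12.7% and 14.4% of all probe sets, with a median of -0.12. Of the 32 listed genes of fatty acid desaturation and membrane lipids only the thioesterase genes FATB and FaTA were tested, at 0.04 (SE 0.146) and 0.06 (SE 0.264). Glucosinolate, photosynthesis, protein-folding and electrophile-response genes, 9 tested in all lists together, lay between -0.29 and 0.22.

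**Figure D4:**
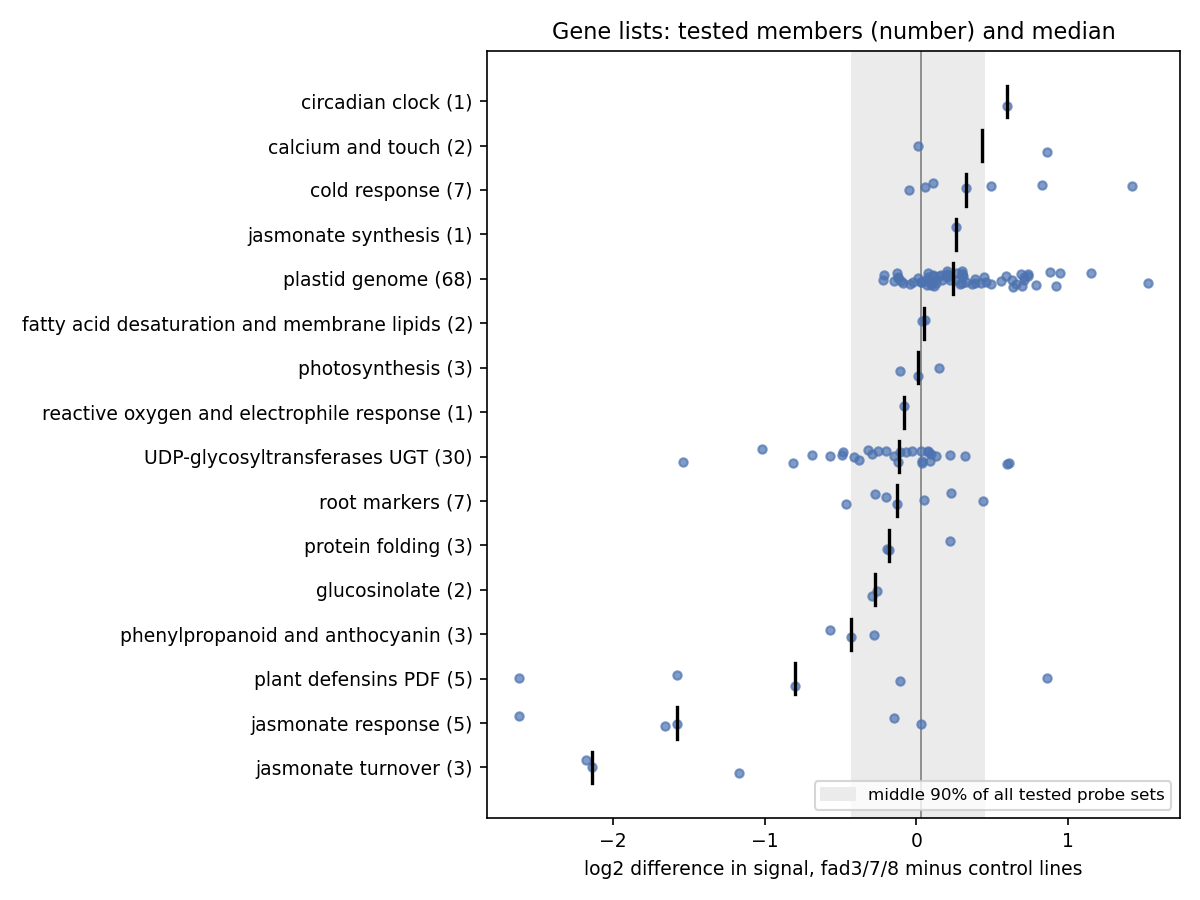
Each point is 1 tested member of a gene list or family, placed by its log2 difference of fad3/7/8 from the mean of the control lines; black bars are list medians and the grey band holds the middle 90% of all tested probe sets. The jasmonate turnover and response lists have medians of -2.14 and -1.58, which are -0.97 without fad3/7/8 cold and -0.23 without fad3/7/8 ambient, and the 68 plastid-encoded genes a median of 0.24.

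The 68 tested genes of the plastid genome had a shift that depended on single arrays, and 0 passed after adjustment. With all arrays, 20 were higher and 0 lower in all 4 differences, against 14.4% and 12.7% of all probe sets, and their median was 0.24. Under median centring 16 were higher and 2 lower, and under quantile normalization 22 and 0. The largest margin was that of psbN, a small photosystem II assembly gene, with 60 and 56.7 in fad3/7/8 and 17.5 to 36.1 in the controls (0.95, SE 0.276, adjusted p = 0.819). The gene psaA, for a photosystem I core protein, had the largest mean difference at 1.53 (SE 1.42), which came from 25.9 on Col-aeq ambient against 1830.9 to 2024.5 on the other 5 arrays. The median plastid signal of Col-aeq ambient was 442, and that of the other 11 arrays 856 to 1060. Without that array the plastid median was 0.07, and 24 of 68 were higher and 1 lower in the 3 differences left, against 3007 and 2904 of all 14131 probe sets. In that fit 10 had an unadjusted p under 0.05 on the higher side, against 4 with all arrays. The same count over all 14131 probe sets was 668, against 341 with all arrays. Without fad3/7/8 ambient the median was 0, with 25 higher and 22 lower in the 2 differences left, and without fad3/7/8 cold it was 0.47.

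The last question was whether cold acted differently on fad3/7/8. The cold change of each line, cold minus ambient, was compared between fad3/7/8 and the control lines, with the other 3 lines as a class of their own that adds to the estimate of the spread. Of 14193 probe sets 1 passed (0.00705%), and 741 (5.22%) had an unadjusted p under 0.05, 310 higher (2.18%) and 431 lower (3.04%). The probe set that passed, 245306_at, has no gene listed in the table used here. It read 198.1 at ambient temperature and 3148.3 in the cold in fad3/7/8, against 1430.5 and 3931.6 in Col-0 and 825.9 and 3108.6 in Col-aeq. Its cold change was thus larger by 2.30 (SE 0.235, adjusted p = 0.0375), through a low ambient level, while the cold levels of fad3/7/8 and Col-aeq were close. It did not pass when fab1, fad2 or 35S-FAD3 was left out (adjusted p up to 0.278), and without Col-0 the count of passing probe sets was 179. The ambient level in fad3/7/8 was the lowest of the 6 lines, the others ranging from 412.1 upwards.

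The cold change of fad3/7/8 lay above both controls for 27.7% of probe sets and below both for 35%, 62.7% in all, and the named genes are those with the lowest p among them. The ones with larger cold changes had adjusted p values of 0.725 to 0.817. HYH, a light-signalling bZIP factor gene related to HY5, read 69.5 at ambient temperature in fad3/7/8 against 205.6 and 198.8 in the controls, and 421.4 in the cold against 488.8 and 384.1 (1.48, SE 0.255). TBL37, of the trichome birefringence-like family, had the same shape, 69.9 against 287.5 and 205.5, and then 215.5 against 388.1 and 253.2 (1.24, SE 0.262). BGLU28, a beta-glucosidase gene, went from 6.6 to 30.4 in fad3/7/8 and from 43.2 to 23.9 in Col-0 (2.56, SE 0.493). PUB19, a U-box ubiquitin ligase gene, went from 22.3 to 398 in fad3/7/8 and from 38 to 264.3 in Col-0 (1.47, SE 0.29). All 4 were at their lowest of the 6 lines at ambient temperature in fad3/7/8.

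Among those with smaller or opposite cold changes, the jasmonate oxidase gene AT2G38240 went from 32.7 to 10 in fad3/7/8, while it went from 96.4 to 152.9 in Col-0 and from 44.7 to 84.7 in Col-aeq (-2.34, SE 0.453, adjusted p = 0.725). AT3G12870 went from 37.2 to 2.4 against 9.7 to 14.6 in Col-0 (-4.10, SE 0.665, adjusted p = 0.601), a size that rests on a signal close to the offset. AT5G32510 stood at -2.69 (SE 0.521) and BUG22 at -1.65 (SE 0.317). None of the 7 tested cold response genes passed for its cold change. AT4G33980 (COR28) had the lowest p of them, with a cold change of 3.29 in fad3/7/8, below the 4.63 of Col-0 and the 3.71 of Col-aeq (-0.88, SE 0.457, adjusted p = 0.885). COR15A and STZ were also below both controls, at 2.52 against 2.94 and 2.62 and at 3.70 against 4.21 and 3.85, and LTI30 at 2.27 against 2.41 and 2.35. COR27, COR47 and COR15B lay between the controls, with 3.71, 1.31 and 2.65.

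**Figure D5:**
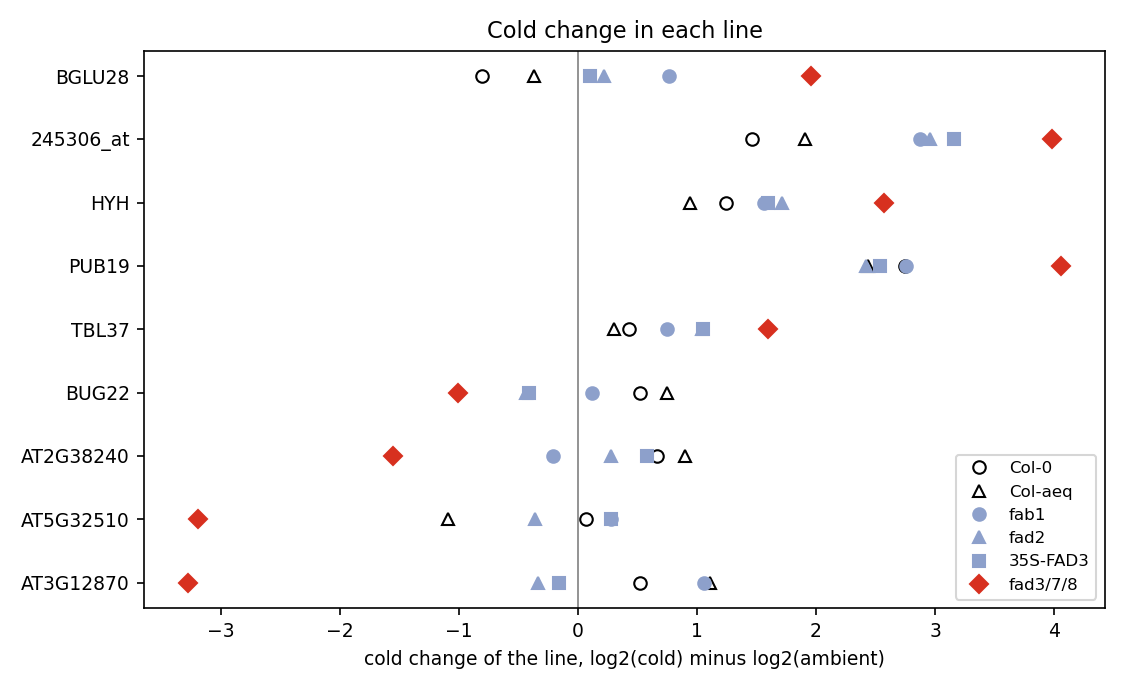
Cold change of each of the 6 lines, log2 cold minus log2 ambient, for the named genes and 245306_at, with 1 point per line from 2 arrays. fad3/7/8 (red diamonds) lies beyond the other 5 lines for each gene, beyond the control lines by the naming rule.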

How the data were processed

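The authors deposited MAS5 signal intensity on a linear scale for 22810 probe sets on 12 arrays; the submitters' processing notes list MAS5 and GCOS, without version or genome build. RNA came from a Qiagen kit and was labelled with biotin by in vitro transcription, per the labels' protocols. No further scaling was applied. No arrays held identical values (0 pairs), and precision is limited by how few arrays there are. Names came from the platform's probe table: 13513 probe sets had 1 gene, 503 several and 8794 none, and only the first were named. Of the 13513, 13436 matched RefSeq.

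Signals were analysed as log2(signal + 1.6), the offset being the 10th percentile of all values, for probe sets with a mean of at least 20 over the 6 arrays; 64 control probe sets were left out. limma 3.58.1 in R 4.3.3 was fitted with temperature as a block, eBayes with an intensity trend, and Benjamini-Hochberg adjustment over all tested probe sets; the code was tested on simulated data. The cold change was fitted on the 6 within-line differences of all 12 arrays. P-values measure the spread between these arrays.

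Named genes were, per direction, up to 12 single-gene probe sets that passed or had the largest margin, the smallest of the 4 differences. Added to these were up to 3 members of each list with the lowest p, and for the cold change 4 per direction with the lowest p beyond both controls. Members and the 15 lists (254 genes, 40 tested) were chosen with earlier results of these data known. The defensin, UGT and plastid families were taken by symbol or genome. Members outside these rules (PDF2.1, psaA, AT3G25150, 256766_at, AT1G20030, AT1G76960, AT2G39920 and list members beyond the third) were named after their values were seen. The salicylate list has no named probe set, and the seed list 1, which was below the minimum. Alternatives were other controls, scalings, offsets, filters, all 12 arrays, line as a random block, no trend, and each array left out.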

Additional observations from a re-analysis of the deposited data

Results flagged for a closer look

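The cold change of probe set 245306_at differed between fad3/7/8 and the control lines by 2.30 on the log2 scale in the test of the difference itself (limma, SE 0.235, adjusted p = 0.0375), the only 1 of 14193 to pass. Cold changes were 3.98 in fad3/7/8, 1.46 in Col-0 and 1.91 in Col-aeq, and 2.87, 2.96 and 3.16 in fab1, fad2 and 35S-FAD3. Over its alternatives the adjusted p ranged from 0.00157 to 1, and it passed under 7 of 13. Its gene is not listed in the table used here.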

How the results depend on the processing

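Arrays could not be paired by replicate number, because all carry replicate number 1 and the groups share fewer than 2 numbers to pair by. Temperature was the block instead, and cold changes were taken within lines. The count of 1 probe set that differed was 1 again, the same probe set, under quantile normalization, median centring, both larger offsets, a minimum of 50, no intensity trend and line as a random block (correlation 0.0272). It was 5 with all 12 arrays (4 in the same direction), 507 against Col-0 alone (319), 4 against Col-aeq alone (2), and 0 with no signal filter, where 1126 had an unadjusted p under 0.05. With single arrays left out it ranged from 0 to 2 (0 to 1 in the same direction): 0 without Col-aeq cold, Col-0 cold, fad3/7/8 ambient or fad3/7/8 cold, with 940, 372, 228 and 590 at an unadjusted p under 0.05. The cold change count was 0 with no filter, with no trend and against the 5 other lines (1181, 776 and 378 unadjusted), and 0 to 179 with single lines left out: 179 without Col-0, 1 without Col-aeq, and 0 without fab1, fad2 or 35S-FAD3 (605, 611 and 534 unadjusted). PDF1.2 passed under 3 of 16 alternatives, with adjusted p from 0.00388 to 1. The cause of these moves was not tested.

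Signs turned for some values near 0: FATB -0.01 and OPCL1 -0.03 against Col-0 alone; CML42 -0.05, LHCB4.2 0, LHCB4.1 -0.14 and GSTU25 0.20 against Col-aeq alone; CML42 -0.01 under quantile normalization; CML42 -0.03, FATB 0 and LHCB4.1 -0.03 under median centring. With single arrays left out, ranges that crossed 0 were -0.04 to 0.12 for FATB, -0.42 to 0.55 for FaTA, -0.20 to 0.71 for OPCL1, -0.18 to 0.20 for CML42 and -0.07 to 0.08 for LHCB4.1. They were -0.46 to 0.90 for AT5G48570, -0.31 to 0.11 for GSTU25, -0.38 to 0 for BZIP60, -0.07 to 0.52 for AT4G30170, -0.81 to 0.28 for BCAT4, -0.94 to 0.08 for DFR and -0.75 to 0.19 for UF3GT. The scalings moved the median of all probe sets between -0.01 and 0.031. Counting each result once per alternative, 605 comparisons with all arrays and 336 with an array left out kept the direction and side of the threshold. The sign turned in 10 and 21, a result came to pass in 21 and 5, and ceased to pass in 4 and 7. Most results did not pass under the main setting, so staying on that side says little.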
